A study of Mus musculus with 6 samples.

Results

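The RNA levels of 10 genes that mark macrophages or their activation state (Adgre1, Csf1r, Cd68, Lyz2, Mrc1, Cd163, Arg1, Retnla, Chil3 and Nos2) were examined in tick-bitten ear skin of mice with and without adiponectin. The genes were taken by symbol from a table of 15667 genes, and all 10 were found. The mice were female B6;129-Adipoqtm1Chan/J littermates of 7 to 8 weeks, either wild type (Adipo+/+, WT, n = 3) or homozygous for a null allele of the adiponectin gene (Adipo-/-, KO, n = 3). All 6 had been fed upon by Ixodes scapularis nymphs (10 per mouse, 48 h), and 1 library was made from a skin punch at the bite site of each mouse. The null allele is constitutive and not restricted to a cell type, and unbitten skin was not analysed here. A punch holds many cell types, so that fewer macrophages and less RNA per macrophage cannot be told apart.

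Macrophages of the skin depend on signaling through the CSF1 receptor and take up debris, hemoglobin and microbes by scavenger and lectin receptors. Interleukin (IL)-4 and IL-13, acting through STAT6, induce an alternative state marked in mice by arginase 1 and the secreted proteins encoded by Retnla and Chil3. Interferon gamma and microbial products induce a classical state in which the inducible nitric oxide synthase encoded by Nos2 uses the same substrate as arginase, the amino acid arginine. These markers are not exclusive to macrophages. Lyz2 and Chil3 are also transcribed by neutrophils and monocytes.

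The set of RefSeq promoter sequences used here (GRCm38.p6) held 6 of the 10 genes (Cd68, Lyz2, Mrc1, Cd163, Retnla and Chil3). It had no entry for Adgre1, Csf1r, Arg1 and Nos2. The 250 bases before the start of transcription are given for Mrc1 and Cd68, an alternative receptor and an identity gene that had their highest levels in the same libraries, and for Retnla, a product of IL-4 signaling whose levels took another order. Capitals mark matches, on either strand, to GAGGAA (the core bound by PU.1, the lineage factor of macrophages), TTCNNNNGAA (the palindrome bound by STAT proteins) and TTGCNNAA (a site bound by C/EBP proteins). None of the marked matches overlap one another in these 3 windows.
Mrc1 (chr2:14229164-14229413, plus strand): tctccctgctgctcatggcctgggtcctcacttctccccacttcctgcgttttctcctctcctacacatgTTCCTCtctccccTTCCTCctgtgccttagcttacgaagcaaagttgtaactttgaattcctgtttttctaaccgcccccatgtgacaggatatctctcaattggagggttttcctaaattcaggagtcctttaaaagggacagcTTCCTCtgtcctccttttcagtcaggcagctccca
Cd68 (chr11:69666171-69666420, minus strand): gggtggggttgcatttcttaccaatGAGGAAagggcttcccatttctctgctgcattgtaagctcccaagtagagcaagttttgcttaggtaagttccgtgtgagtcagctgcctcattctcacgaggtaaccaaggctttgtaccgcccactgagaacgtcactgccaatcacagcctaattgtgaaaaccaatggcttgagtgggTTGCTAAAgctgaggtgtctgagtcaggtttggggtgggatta
Retnla (chr16:48842359-48842608, plus strand): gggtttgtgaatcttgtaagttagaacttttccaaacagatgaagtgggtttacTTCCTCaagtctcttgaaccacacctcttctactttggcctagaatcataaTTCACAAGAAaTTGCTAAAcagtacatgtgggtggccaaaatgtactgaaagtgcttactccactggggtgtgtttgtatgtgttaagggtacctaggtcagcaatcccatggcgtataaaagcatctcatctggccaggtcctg

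Mrc1 had 3 matches to GAGGAA, which began 180, 167 and 35 bases before its start. Cd68 had 1 such match, 225 bases before its start, and 1 match to TTGCNNAA at 43 bases. Retnla had 1 match to each motif, at 196 bases (GAGGAA), 145 bases (TTCNNNNGAA) and 134 bases (TTGCNNAA). No match to any of the 3 was found in the windows of Lyz2, Cd163 and Chil3. Of 27025 mouse promoters of this length, 23.1% held GAGGAA, 5.87% held TTCNNNNGAA and 9.55% held TTGCNNAA.

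Values are counts per 1000000 reads (CPM). The CPM of a single read implied a depth of 4131361 to 6065618 reads for the WT mice and of 3403706 to 6591523 reads for the KO mice, so that 3 reads stood for 0.455 to 0.881 CPM. Adipoq was at 30.5, 63.7 and 49.6 CPM in the WT libraries and at 0, 0.561 and 0 CPM in the KO libraries, as the labels state. The libraries differed most in hair follicle RNA. A list of 15 hair follicle genes summed to 12.3 and 18.3 CPM in WT replicates 1 and 2 but to 23359 CPM in WT replicate 3, and to between 968 and 9272 CPM in the KO libraries. Its part in the results below was not tested.

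No difference between KO and WT skin passed the test for any of the macrophage genes. In limma, on log2(CPM + 0.5), 0 of the 9 genes tested passed after Benjamini-Hochberg adjustment over 14306 genes whose mean reached 1 CPM (adjusted p = 0.998 to 0.999), and 0 of 9 had an unadjusted p below 0.05. Among all genes tested 2.88% had an unadjusted p below 0.05 (1.82% with the KO level lower, 1.06% with it higher) and 0.014% passed the adjustment. Nos2, at a mean below 1 CPM, was not tested. WT and KO values overlapped for all 10 genes, whereas they did not overlap in 7.84% of all genes tested. Fold changes were below 0 on the log2 scale in 8 of the 9, against 56.7% of all genes tested, and their median was -0.13 against -0.03. The median depended on single libraries and was 0.15 without WT replicate 2, 0.12 without KO replicate 1, -0.42 without WT replicate 3 and -0.35 without KO replicate 2.

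**Figure D1:**
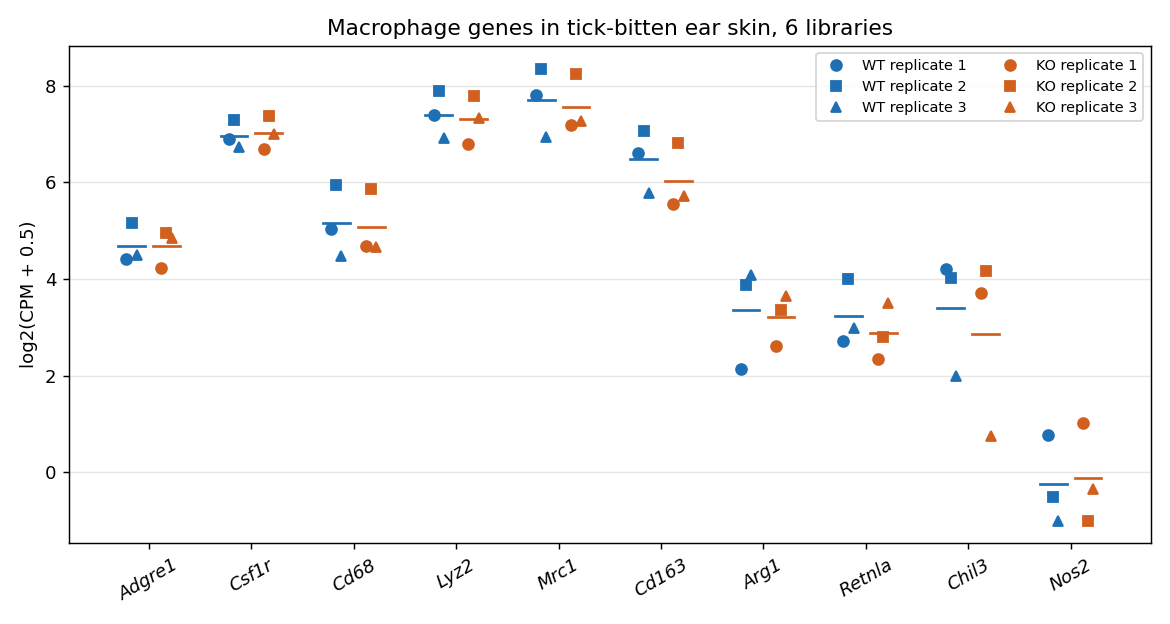
Levels of the 10 macrophage genes in each library, as log2(CPM + 0.5) on the vertical axis, with WT in blue, KO in orange, replicates by symbol and the group mean as a bar. WT and KO values overlap for every gene, and replicate 2 of each group is highest for the 6 genes from Adgre1 to Cd163.

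The identity genes were examined first. Adgre1 encodes F4/80, the classical surface antigen of mouse macrophages (chromosome 17, 57358686 to 57483529, plus strand). It was at 20.8, 35.0 and 22.1 CPM in WT replicates 1, 2 and 3 and at 18.4, 30.5 and 28.5 CPM in KO replicates 1, 2 and 3. The group means were 26.0 ± 7.84 and 25.8 ± 6.53 CPM (SD, n = 3 each), and the log2 fold change of KO over WT was -0.003 with a 95% interval of -0.61 to 0.61.

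Csf1r, the receptor for CSF1 and IL-34 (chromosome 18, 61105572 to 61131139, plus strand), was the steadiest of the 10. It was at 118, 155 and 105 CPM in WT and at 103, 165 and 128 CPM in KO, a span of 1.60-fold from the lowest to the highest library. Its log2 fold change was 0.06 (95% interval -0.41 to 0.53), which is also the narrowest interval of the 9 genes. As a fold this interval runs from 0.753 to 1.44 times the WT level.

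Cd68, a glycoprotein of late endosomes and lysosomes (chromosome 11, 69664213 to 69666170, minus strand), was at 32.2, 61.2 and 21.6 CPM in WT. In KO it was at 25.2, 57.7 and 25.0 CPM. Replicate 2 of each group was higher than the other 4 libraries, and the means of 38.3 ± 20.5 and 36.0 ± 18.8 CPM (SD, n = 3 each) differed by less than the spread within either group (log2 fold change -0.08, interval -1.08 to 0.93).

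Lyz2, the lysozyme of macrophages, monocytes and neutrophils (chromosome 10, 117277541 to 117282272, minus strand), was at 167, 238 and 121 CPM in WT. The KO libraries held 109.7, 221 and 160.1 CPM. Replicate 2 was again the highest in each genotype. The log2 fold change was -0.10 (interval -0.80 to 0.60).

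The receptors of the alternative state were compared next. Mrc1, the mannose receptor CD206 (chromosome 2, 14229414 to 14332023, plus strand), was at 222, 326 and 122 CPM in WT and at 145, 304 and 153 CPM in KO. Its means were 224 ± 102 and 201 ± 89.5 CPM (SD, n = 3 each), with a log2 fold change of -0.13 (interval -1.04 to 0.77). The difference between the lowest and the highest library of WT was larger than that between the group means.

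Cd163, the scavenger receptor for hemoglobin bound to haptoglobin (chromosome 6, 124304651 to 124330527, plus strand), was at 97.1, 133 and 54.2 CPM in WT. It was at 46.6, 112 and 52.3 CPM in KO. The log2 fold change was -0.45 (SE 0.40, unadjusted p = 0.291, adjusted p = 0.998 in limma). It was -0.81 without WT replicate 3, -0.84 without KO replicate 2, -0.16 without WT replicate 2 and -0.22 without KO replicate 1. Of the 9 members tested, only Cd163 reached an unadjusted p below 0.05 in limma when a library was left out. The unadjusted p was 0.0418 (adjusted 0.977) without WT replicate 3, and 0.0465 (adjusted 0.998) without KO replicate 2. Over all 16 alternatives its adjusted p was 0.958 to 1.0.

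The secreted or enzymatic products of the alternative state followed. Arg1, which splits arginine into ornithine and urea (chromosome 10, 24915207 to 24927470, minus strand), was at 3.87, 14.2 and 16.5 CPM in WT and at 5.61, 9.81 and 12.0 CPM in KO. WT replicate 1 was the lowest and WT replicate 3 the highest of the 6, so that WT alone covered the whole range of KO. The log2 fold change was -0.16 (interval -1.38 to 1.07), and it was -0.78 without WT replicate 1 and 0.20 without WT replicate 3.

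Retnla, which encodes the resistin-like molecule RELM alpha (chromosome 16, 48842609 to 48844461, plus strand), was at 6.05, 15.5 and 7.42 CPM in WT and at 4.55, 6.45 and 10.9 CPM in KO. Its log2 fold change was -0.35 (interval -1.32 to 0.62) and moved to 0.03 without WT replicate 2 and to -0.66 without KO replicate 3. Here KO replicate 2, which was high for the identity genes, was below WT replicate 3.

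Chil3, the chitinase-like lectin Ym1 (chromosome 3, 106147554 to 106167564, minus strand), varied most. It was at 17.9, 15.7 and 3.46 CPM in WT and at 12.6, 17.4 and 1.18 CPM in KO, a span of 15.2-fold. In each group replicate 3 was several times lower than the other two. The log2 fold change was -0.53 with an SE of 0.94, and its interval of -2.70 to 1.64 admits a change in either direction. Without KO replicate 3 it was 0.53, and without WT replicate 3 it was -1.24.

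Nos2 (chromosome 11, 78920787 to 78960226, plus strand) was near the limit of detection. It was at 1.21, 0.203 and 0 CPM in WT, from 5, 1 and 0 reads, and at 1.52, 0 and 0.294 CPM in KO, from 10, 0 and 1 reads. Most of the reads came from replicate 1 of each group, the only libraries above the level of 3 reads. Averaged over 3 mice, this was 0.471 ± 0.648 (SD) CPM for WT and 0.604 ± 0.805 (SD) CPM for KO. Without the filter on low values, limma gave a log2 fold change of 0.14 (interval -1.40 to 1.67). With the reads of each group pooled, the KO level per depth was 2.04 times that of WT (95% exact binomial interval 0.692 to 6.73, for counting error only). This ratio rested on replicate 1 of each group, since it was 0.361 (0.00785 to 2.98) without KO replicate 1 and 8.91 (1.29 to 383) without WT replicate 1. No difference was detectable at this depth.

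**Figure D2:**
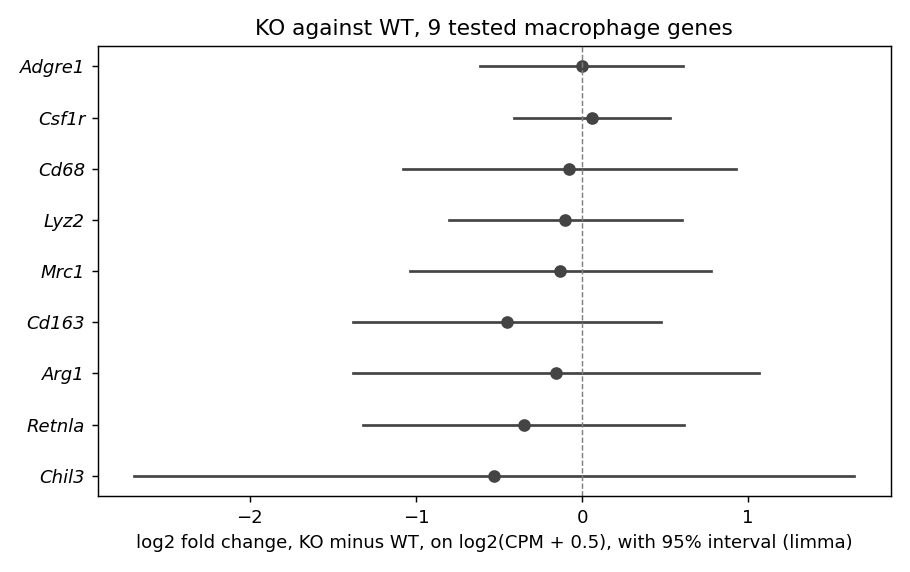
Fold change of KO over WT for the 9 tested genes on the log2(CPM + 0.5) scale, with 95% intervals from limma. Every interval includes 0, from the narrowest of Csf1r (-0.41 to 0.53) to the widest of Chil3 (-2.70 to 1.64).

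Levels were also expressed per kilobase of merged exons (GENCODE M21), since CPM of different genes cannot be compared directly. The mean over 6 libraries was highest for Lyz2 (129 CPM per kilobase), followed by Mrc1 (33.3), Cd68 (29.6), Csf1r (22.4), Cd163 (15.1), Retnla (14.1), Adgre1 (7.99), Chil3 (6.96), Arg1 (4.64) and Nos2 (0.122). Lyz2 was above each of the other genes in every library, and Nos2 below them all. Between these ends every pair of neighbours in the order overlapped in range over the libraries. Csf1r at 17.9 to 28.6 CPM per kilobase, for example, overlapped Cd163 at 8.53 to 24.4. Arg1, at 1.74 to 7.40 CPM per kilobase, was above the highest level of Nos2 (0.344) in every library.

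The 6 identity and receptor genes had a common course across the mice. All 6 had their highest levels in WT replicate 2 and KO replicate 2, a pattern seen in 8.69% of all genes tested and noticed after the values had been seen. In WT replicate 2 they lay 0.29 (Csf1r) to 0.84 (Cd68) above their own mean on the log2 scale, and in KO replicate 2 0.27 (Adgre1) to 0.75 (Cd68). They were all below their mean in WT replicate 3 (-0.69 to -0.19) and in KO replicate 1 (-0.70 to -0.30). The same 2 libraries were highest for 13 of 14 genes of a list of resident dermal macrophages and for 13 of 24 genes of a macrophage core list. They were highest for 0 of the 4 remaining macrophage genes. Chil3 (0.88 in WT replicate 2, 1.02 in KO replicate 2) and Arg1 (0.59 and 0.08) nevertheless also lay above their own mean in both. Among other lists the count was 3 of 10 for monocytes, 0 of 9 for neutrophils and 2 of 10 for adipocytes, and 4 of 8 for mast cells (Cpa3, Mcpt4, Tpsb2 and Cma1, which encode granule proteases). The summed level of the 8 mast cell genes was also highest there, at 177 CPM in WT replicate 2 and 184 CPM in KO replicate 2 against 97.7 to 159.8 CPM in the other libraries, and its part in this course was not tested. The labels number the replicates and do not state that equal numbers pair mice.

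**Figure D3:**
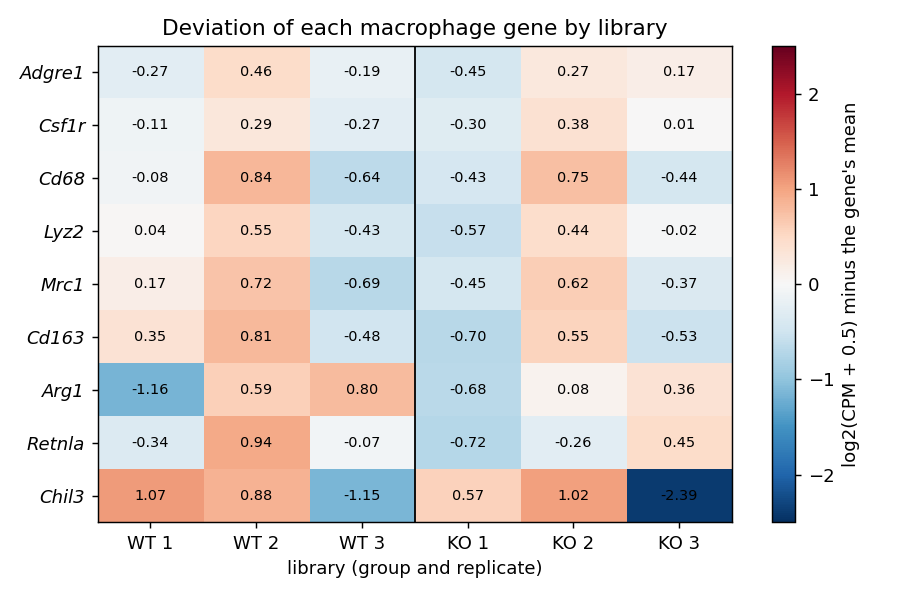
Deviation of each tested gene from its own mean over the 6 libraries, in log2(CPM + 0.5), with the 3 WT and 3 KO libraries in columns. The first 6 genes are highest in replicate 2 of each group, while Arg1, Retnla and Chil3 follow other orders. Chil3 (0.88 in WT, 1.02 in KO) and Arg1 (0.59 and 0.08) are also positive in replicate 2 of each group. Retnla is negative in KO replicate 2 (-0.26).

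Relative to Csf1r in the same library, the other genes overlapped between the genotypes for all 9 ratios. The ratio of Cd163 to Csf1r was 0.822, 0.858 and 0.515 in WT and 0.451, 0.675 and 0.408 in KO. That of Mrc1 was 1.88, 2.10 and 1.16 in WT against 1.40, 1.84 and 1.19 in KO. For Arg1 it was 0.0328, 0.0917 and 0.156 in WT and 0.0544, 0.0593 and 0.0940 in KO. These are ratios of CPM and are given without a test.

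Of the 9 members tested, only Chil3 spanned more than 2 on the log2 scale over the 6 libraries. The genes nearest to it in course were the monocyte chemokine Ccl7 (root mean square difference 0.50), the pentraxin Ptx3 (0.52) and the pseudogene Atp6v0c-ps2 (0.55), against a deviation of 1.31 for Chil3 itself. Ccl7 was at 28.6, 14.6 and 3.63 CPM in WT and at 12.4, 16.3 and 3.53 CPM in KO. Like Chil3, it was lowest in replicate 3 of each group. This likeness is a description over 6 libraries.

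Paralogs were then examined, because reads can be divided between them. Lyz1, the lysozyme of Paneth cells and a tandem copy of Lyz2 (chromosome 10, 117287795 to 117292868, minus strand), was at 10.7, 16.5 and 11.9 CPM in WT and at 7.89, 6.17 and 7.05 CPM in KO. All 3 KO values lay below all 3 WT values. The log2 fold change was -0.82 (SE 0.23) with an unadjusted p of 0.00792 and an adjusted p of 0.998 in limma (0.738 to 1.0 over the alternatives). Reads of Lyz1 made up 5.99%, 6.47% and 8.97% of the sum of both lysozymes in WT and 6.71%, 2.71% and 4.22% in KO, and these shares overlapped.

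Chil4, the copy of Chil3 that encodes Ym2 (chromosome 3, 106201491 to 106219479, minus strand), was at 57.8 CPM in KO replicate 1 from 381 reads. The other 5 libraries held 1 read together, in KO replicate 3. Chil3 itself was at 12.6 CPM in KO replicate 1, within the range of the other libraries. The limma test of Chil4 did not pass (unadjusted p = 0.159, adjusted p = 0.998), and with 1 library high the group comparison rests on that mouse.

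Retn, the resistin gene of adipocytes and a relative of Retnla, was at 8.96, 18.5 and 15.3 CPM in WT and at 3.79, 10.1 and 4.41 CPM in KO (log2 fold change -1.22, unadjusted p = 0.0171, adjusted p = 0.998 in limma). A list of 10 adipocyte genes that includes Retn summed to 574 to 857 CPM in WT and to 349.99, 857 and 411 CPM in KO. Its part in the level of Retn was not tested. The other paralogs tested (Chil1, Retnlg, Arg2, Nos1, Nos3, Mrc2, Adgre4, Adgre5, Kit and Flt3) had unadjusted p-values of 0.0671 or more in limma. Retnlb was not among the 15667 genes with values.

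**Figure D4:**
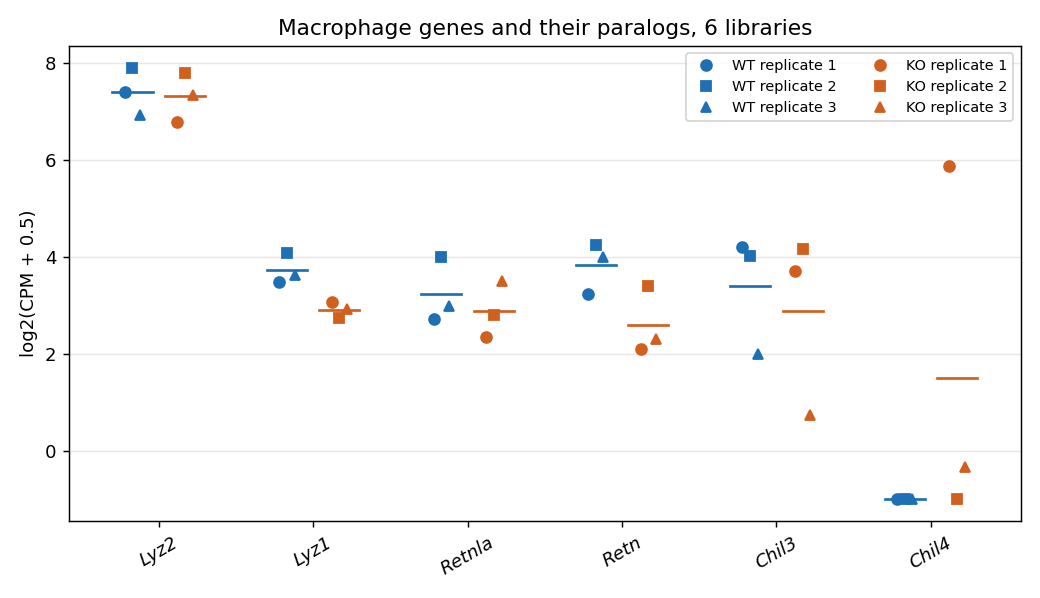
Levels of Lyz2, Retnla and Chil3 beside Lyz1, Retn and Chil4 in each library, as log2(CPM + 0.5), with WT in blue, KO in orange and the group mean as a bar. The KO values of Lyz1 lie below its WT values, and Chil4 is high in KO replicate 1 alone.

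Other genes of the macrophage program were counted by list. Of 24 macrophage core genes, which include complement C1q, Fc receptors and their adaptors, 0 had an unadjusted p below 0.05, and the median log2 fold change was -0.15. Aif1, an actin-binding protein of activated macrophages, was lowest (-0.54) and Cx3cr1, the fractalkine receptor, highest (0.58, at 2.18 to 3.46 CPM in WT and 3.64 to 5.04 CPM in KO). Of 14 resident dermal genes 1 had an unadjusted p below 0.05. This was Lyve1, a hyaluronan receptor shared with lymphatic vessels, at 62.2, 63.5 and 44.5 CPM in WT and at 37.9, 46.5 and 32.6 CPM in KO (log2 fold change -0.53, adjusted p = 0.998 in limma). The median of that list was -0.13, from -0.58 for the lectin gene Cd209f to 0.95 for the phosphatidylserine receptor gene Timd4.

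In the list of CSF1 receptor ligands and lineage regulators, 0 of 12 genes had an unadjusted p below 0.05, with a median of 0.05. Csf1 was at 46.3 to 73.6 CPM in WT and at 60.8 to 88.6 CPM in KO, and Spi1, which encodes PU.1, at 10.7 to 20.1 and 12.9 to 23.8 CPM. Nr1h3 was lowest (-0.53) and Irf8 highest (0.26). Of 10 monocyte genes 0 had an unadjusted p below 0.05 (median -0.18), from the haptoglobin gene Hp (-1.11) to the coagulation factor gene F10 (0.50).

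In the pathway of IL-4 and IL-13, 16 of 20 genes were tested, and 2 had an unadjusted p below 0.05, 1 in each direction. Pparg, a nuclear receptor of fat cells as well as macrophages, was at 13.6, 13.6 and 15.7 CPM in WT and at 5.92, 11.8 and 7.05 CPM in KO (log2 fold change -0.81). Ccl22, a chemokine that attracts T cells bearing CCR4, was at 3.39, 3.87 and 5.94 CPM in WT and at 12.4, 6.45 and 14.4 CPM in KO (1.21). Neither gene overlapped between groups, and neither passed the adjustment (adjusted p = 0.998 each in limma). The median of the list was 0.06. Il4 and Il13 were not among the 15667 genes with values. Stat6, which carries the signal, was at 95.5 to 104 CPM in WT and at 97.2 to 102 CPM in KO.

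In the pathway of interferon gamma and Toll-like receptors, 22 of 28 genes were tested. The interferon gamma receptor subunit Ifngr2 had an unadjusted p of 0.0154, at 38.7, 37.8 and 35.6 CPM in WT and at 44.1, 51.0 and 50.5 CPM in KO (log2 fold change 0.37, adjusted p = 0.998 in limma). No other gene of the list had an unadjusted p below 0.05, and the median was -0.07. The gene with the lowest fold change, Ptgs2, which makes the cyclooxygenase of inflammation, was at 134, 25.6 and 4.45 CPM in WT and at 29.4, 7.01 and 9.11 CPM in KO, with WT replicate 1 far above the rest. Of the 22 genes 11 were highest in WT replicate 1 and 15 were lowest in WT replicate 3. For 0 of the 22 were WT replicate 2 and KO replicate 2 the highest libraries, and a difference in order from the identity genes was not tested. Ifng, Il12a, Il12b and Il23a were not among the 15667 genes with values.

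Of 18 genes of arginine metabolism, 0 had an unadjusted p below 0.05, and their median was -0.06. The endothelial nitric oxide synthase gene Nos3 was lowest (-0.80) and Asl, which makes arginine, highest (0.17). Arg2, the mitochondrial arginase, was at 3.65 to 8.50 CPM in WT and at 3.54 to 7.09 CPM in KO.

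Markers of other cell types in the punch were set beside these values. Neutrophil genes (10 of 16 in the table) summed to 636, 244 and 72.5 CPM in WT and to 244, 138 and 132 CPM in KO, with 0 of 9 tested genes at an unadjusted p below 0.05. Chil3 was highest in WT replicate 1 (17.9 CPM), the library with the highest sum of these listed genes. It was next highest in KO replicate 2 (17.4 CPM), where the neutrophil sum was 138 CPM. Within each group Chil3, the neutrophil sum and the sum of 10 monocyte genes were all lowest in replicate 3. The monocyte genes summed to 454, 529 and 270 CPM in WT and to 291, 470 and 207 CPM in KO. The sums overlapped between groups for dendritic and Langerhans cells (296 to 371 CPM in WT, 312 to 328 in KO), mast cells (148 to 177 and 97.7 to 184), adipocytes, keratinocytes (30977 to 44067 and 40868 to 57525), fibroblasts (4779 to 5863 and 4865 to 7322), endothelial cells (153 to 173 and 111 to 178) and skeletal muscle (3810 to 5239 and 2218 to 5186). Eosinophil genes (2 of 8 in the table) summed to 1.65 to 3.05 CPM in WT and 1.06 to 3.53 CPM in KO. Genes at an unadjusted p below 0.05 numbered 2 of 10 for adipocytes (Retn and Fabp4, lower in KO), 1 of 10 for fibroblasts (Col1a1, higher), 1 of 8 for muscle (Mylpf, lower) and 0 for dendritic (8 tested), mast (8), eosinophil (1), keratinocyte (9), hair follicle (15) and endothelial cells (8). The lowest and the highest log2 fold changes within these lists were -0.75 (Trem1) and 0.40 (Cxcr2) for neutrophils, -0.79 (Cd209a) and 0.27 (Cd207) for dendritic and Langerhans cells, and -1.05 (Ms4a2) and 0.28 (Tpsb2) for mast cells. They were -1.22 (Retn) and -0.17 (Adig) for adipocytes, 0.067 (Sbsn) and 0.86 (Krt2) for keratinocytes, and 0.35 (Msx2) and 5.11 (Krt71) for the hair follicle. For fibroblasts they were -0.35 (Dpt) and 0.50 (Col1a1), for endothelial cells -0.26 (Tie1) and 0.071 (Vwf), and for muscle -0.80 (Actn3) and -0.38 (Myh4), while the single eosinophil gene tested, Ear2, was at 0.28. The part of other cell types in the levels of the macrophage genes was not tested.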

How the data were processed

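RNA was sequenced from 1 bite-site punch of each of 3 WT and 3 KO mice. The authors trimmed the reads, used STAR (version 2.7.3a) for alignment to mm10, and quantified Ensembl transcripts per gene with the expectation-maximization method of Partek, which can divide a read among near-identical genes. The deposited values are CPM, made by the authors from gene counts over the library total plus an offset of 0.0001 that was subtracted here. Strand use was not given in the sources used here. Ends of gene positions were lowered by 1. In each library 91.9% to 92.6% of the values below 20 reads fell within 0.1 of a whole number of the lowest steps, so depths are estimates and no count model was the main test.

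Genotypes came from the labels. The comparison of KO with WT used limma (version 3.58.1, R 4.3.3; eBayes with a trend, two-sided, no covariate) on log2(CPM + 0.5) of 14306 genes whose mean reached 1 CPM. Such fold changes understate those of low genes. The step was tested on simulated data, whose spread between libraries was preset and not estimated from these mice. That test therefore gives no measure of power for the genes reported here. An exact permutation test of 3 against 3 cannot give a p below 0.1. Genes named are the 10 members, Adipoq, paralogs and, from each other list, the lowest, the highest and any at an unadjusted p below 0.05, and, for members spanning over 2 on the log2 scale, the 3 genes (mean of at least 5 CPM) nearest in centred log2 values. Csf1, Spi1, Stat6, Cpa3, Mcpt4 and Cma1 were chosen after their values were seen. The members and lists were chosen with earlier results of these data known.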

Additional observations from a re-analysis of the deposited data

How the results depend on the processing

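The 16 alternatives were other pseudocounts (0.1 and 2), filters (none, mean of 5 CPM), scalings (median of ratios, quantile), eBayes without a trend or robust, limma voom on recovered reads, the replicate block, and leaving out each library. The number of macrophage genes past the adjusted threshold was 0 in all 16, and at an unadjusted p below 0.05 it was 0 to 1 (1 without WT replicate 3 or KO replicate 2, Cd163 each time). The median log2 fold change of the 9 genes was -0.42 to 0.15 when a library was left out. Leaving out a library gave log2 fold changes of -0.14 to 0.23 (Adgre1), -0.12 to 0.22 (Csf1r), -0.47 to 0.32 (Cd68), -0.35 to 0.16 (Lyz2), -0.51 to 0.19 (Mrc1), -0.78 to 0.20 (Arg1), -0.66 to 0.031 (Retnla) and -1.24 to 0.53 (Chil3), whereas Cd163 stayed below 0. The direction turned without WT replicate 2 (Adgre1, Cd68, Lyz2, Mrc1, Arg1, Retnla), WT replicate 3 (Csf1r, Arg1), KO replicate 1 (Adgre1, Cd68, Lyz2, Mrc1, Arg1), KO replicate 2 (Csf1r) or KO replicate 3 (Cd68, Mrc1, Chil3). Adgre1 also turned with median-of-ratios (0.026) and quantile scaling (0.052). The cause was not tested.

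Over all genes, 260 were lower and 152 higher in KO at an unadjusted p below 0.05, and 2 passed the adjustment. Higher genes numbered 232 with quantile scaling, and 1 gene passed with voom. The lower genes made up 63.1% of these calls in the deposited scaling, 50.7% with median of ratios and 45.4% with quantile scaling. Leaving out a library gave 147 (without WT replicate 2) to 395 (without WT replicate 3) lower, 89 (without KO replicate 3) to 313 (without WT replicate 3) higher and 0 (without WT replicate 2) to 16 (without WT replicate 3) adjusted calls. With the replicate block 414 genes were lower, and no macrophage gene passed. In this balanced design the block cannot alter a fold change, so it could not test the directions. The labels do not state that equal replicate numbers pair mice. Deviations correlated at 0.376, -0.306 and -0.222 across genes for replicates 1, 2 and 3. WT replicates 2 and 3 correlated best with another number. With 3 libraries per group these correlations cannot decide whether mice of equal number were handled together. Adipoq did not pass with voom (-7.88, adjusted p = 0.488) or without WT replicate 2 (-5.94, 0.0683). Depth limits Nos2 most, as 3 reads stand for 0.455 to 0.881 CPM.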
